A study of Mus musculus with 50 samples.

Results

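The 4 genes described here, Hist1h1b, Hist1h1c, Hist1h1d and Hist1h1e, encode replication-dependent linker histones of the H1 family, and were examined for every listed variant in mouse plasma cell tumours. Of these 4 genes, 3 held a variant, and together they accounted for 13 of the 25624 variants used. The variants were found by gene name, taking rows that name a member and a single alternate allele, whatever the effect. The genes themselves had been chosen because variants had been seen in them, so the counts that follow are a description and carry no test.

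The study sequenced exomes from mesenteric lymph node tumours of IL6Myc mice, an immunocompetent model of aggressive multiple myeloma, with wild-type Balb/c kidneys as controls. The labels list 45 tumours, each from its own mouse and labelled as malignant plasma cells, and 5 kidneys. Calls of 44 tumours were used; neither kidneys nor IL6Myc tumour 4 were used here. The labels give the genotype only as IL6Myc, so the sources used here do not give the promoters that drive the transgenes, nor age, treatment or the share of malignant cells in each node. The labelled cell type could not be checked against markers, since DNA variants carry no expression. Tumours are numbered in the order of the sample list.

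Linker histones bind the DNA that enters and leaves the nucleosome and help to fold chromatin into compact, silent domains. Each has a short N-terminal tail, a folded globular domain that contacts the nucleosome, and a long, lysine-rich C-terminal tail that binds linker DNA. In germinal centre B cells and the lymphomas that derive from them, H1 genes are known targets of AID (activation-induced deaminase), the enzyme that mutates antibody genes and, off target, other strongly transcribed genes. AID acts on cytosine, most readily with a purine before it and a pyrimidine after it.

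All 4 genes lie in the large histone gene cluster of chromosome 13, and their positions are given on GRCm38.p6, the assembly that mm10 names. Hist1h1b, now H1f5, spans 21779832 to 21780625 on the minus strand. Hist1h1d, now H1f3, spans 23555032 to 23555807 on the plus strand. Hist1h1e, now H1f4, spans 23621777 to 23622558 on the minus strand. Hist1h1c, now H1f2, spans 23738807 to 23739531 on the plus strand. The spans measure between 725 and 794 bases.

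RefSeq promoter windows, of the same build, covered the position of 1 of the 13 variants, the 5' UTR change of Hist1h1d. It is shown because it is the member call for which the surrounding bases could be read. The window is chr13:23555058-23555081 on the plus strand, and the capital marks the changed base, an A-to-T change 12 bases before the start codon.
Hist1h1d reference: ttactttttgctttactagtAaag
Hist1h1d tumour 10: ttactttttgctttactagtTaag
The deposited reference base matched RefSeq there. For Hist1h1c, the start codon position implied by all 4 written coding changes, 23738849, held ATG in its RefSeq window, so table and reference share coordinates at this gene as well.

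Linker histone variants were present in 8 of 44 tumours (18.2%, exact 95% interval 8.19 to 32.7%), and each of those 8 tumours carried at least 1 missense change. The 13 variants comprised 10 missense changes, 1 synonymous change, 1 in the 5' UTR and 1 in the 3' UTR. None was truncating. Every one was private, meaning that it was called in 1 tumour only, whereas 49.6% of all variants used were private. The 10 missense changes affected 10 different residues, so no gene and residue was changed in more than 1 tumour. Intervals cover counting error only. Kidney calls were not used, so inherited and acquired variants cannot be told apart by comparison with normal tissue.

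Hist1h1c was altered in the most tumours. It carried missense changes in 4 tumours (9.09%, exact 95% interval 2.53 to 21.7%) and any variant in 5. For scale, 0.0228% of 21900 protein-coding genes had a private protein-altering variant in at least 4 tumours, and 0.365% had a private variant of any effect in at least 5. These shares are printed as background and support nothing, because the members were picked on such calls. In the N-terminal tail, tumour 42 carried p.Pro28Ser at position 23738930, with 24.14% of reads bearing the alternate base. In the globular domain, tumour 22 carried p.Ala69Thr at 23739053 with a read share of 7.41%. Also in that domain, tumour 34 carried p.Lys81Asn at 23739091 at 14.89%, which replaces a basic residue by a neutral one. In the C-terminal tail, tumour 36 carried p.Pro182Ser at 23739392 at 12.77%. The 4 missense calls were thus spread along the protein, and 3 of them lay under a read share of 20%. The fifth Hist1h1c call, in tumour 43, was a T-to-C change at 23739740 with a read share of 36.23%. It is annotated as 3' UTR but lies 209 bases past the end of the RefSeq gene.

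Hist1h1d held the most variants, 6 in 4 tumours, of which 4 were missense changes in 3 tumours (6.82%, exact 95% interval 1.43 to 18.7%). Private protein-altering variants in at least 3 tumours were seen in 0.0868% of protein-coding genes, and private variants of any effect in at least 4 in 0.877%. Neighbouring codons of the globular domain were hit in different tumours. Tumour 18 carried p.Leu63Phe at 23555276 with a read share of 27.78%. Tumour 22 carried the synonymous change of Lys64 at 23555281, at 19.35%. Further along the same domain, tumour 10 carried p.Thr93Ile at 23555367 at 27.27%, beside the 5' UTR change at 23555078 at 33.33%. In the C-terminal tail, tumour 43 carried p.Ala180Thr at 23555627 and p.Ala181Gly at 23555631, 4 bases apart, both with a read share of 39.58%. The table does not say whether both bases were changed on the same reads. All 6 Hist1h1d read shares lay between 19.35% and 39.58%.

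Hist1h1e carried 2 missense changes, in 2 tumours (4.55%, exact 95% interval 0.555 to 15.5%), against 0.457% of protein-coding genes with private protein-altering variants in at least 2. Tumour 10 carried p.Gly103Asp in the globular domain, at 23622190, with a read share of 23.53%. This change brings an acidic residue into a domain that binds DNA. Tumour 2 carried p.Lys169Glu in the C-terminal tail, at 23621993, with 53.33%, the highest of the 13 read shares. It turns a basic into an acidic residue. In tumour 2 the median over 1415 other private SNVs outside the antibody loci was 45.45%, the highest such median of the 44 tumours. The origin of p.Lys169Glu was not tested.

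Hist1h1b had no listed variant. A count of 0 in 44 tumours allows a share of up to 6.82% by the limit of 3 counts, and of up to 8.04% by the exact 95% interval used for the other members. The nearest listed variant lay 2486 bases outside the gene, and the table gives no coverage, so an unchanged gene and an unread one cannot be told apart.

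Across the members, 5 of the 10 missense changes fell in the globular domain (50%, exact 95% interval 18.7 to 81.3%), 4 in the C-terminal tail and 1 in the N-terminal tail. With the synonymous Lys64 change, the globular domain held 6 of 11 coding calls. The ends of the domain were taken from textbook knowledge of H1, as no protein sequence was at hand. All 3 changes that altered the charge of a residue made it less positive or more negative: p.Lys81Asn, p.Gly103Asp and p.Lys169Glu. In 4 of the 10 changes a serine or threonine was created, each from an alanine or proline. The domain split differed between early and late sample titles: 4 of 5 missense changes were globular in tumours titled below 1601, and 1 of 5 in those titled 1601 or above. The sources used here do not say what separates these title ranges.

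**Figure D1:**
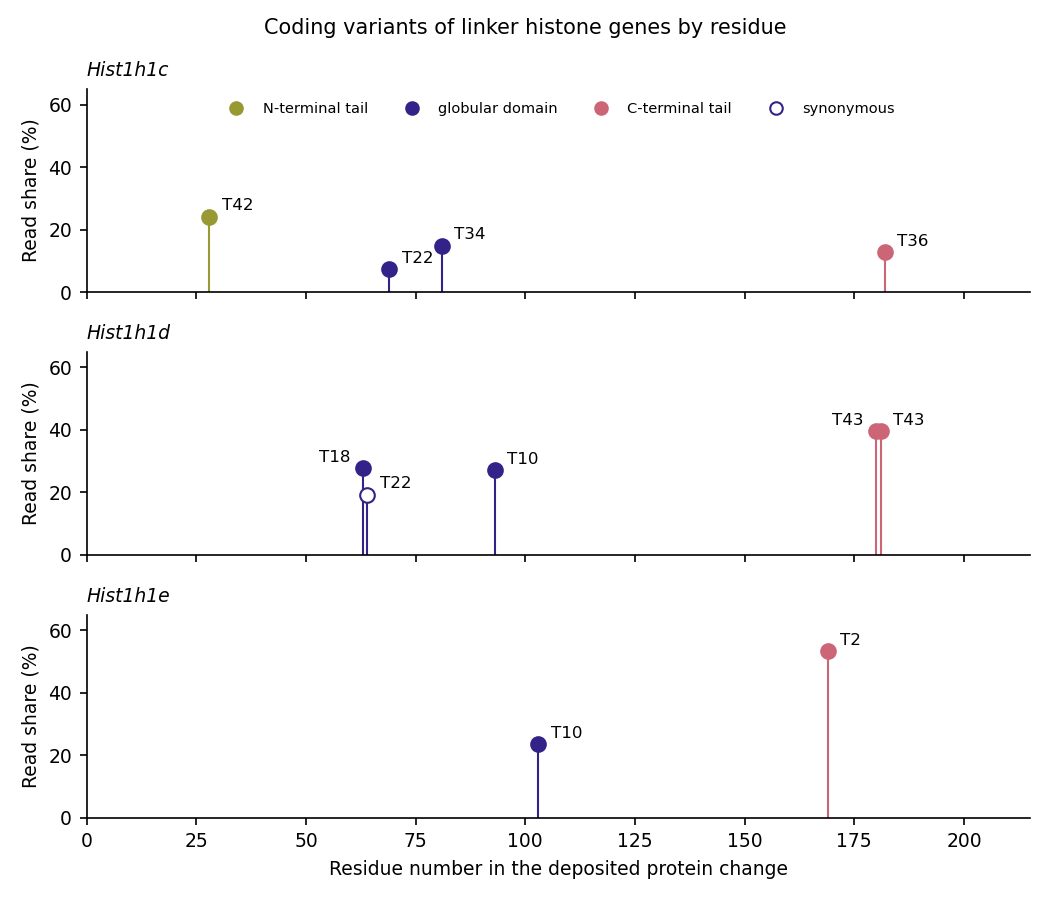
Residue number (x axis) against alternate-read share in percent (y axis) for the 11 coding variants of Hist1h1c, Hist1h1d and Hist1h1e; each stem is 1 call, T and a number name the tumour, colours give the protein region and the open circle is the synonymous change. Calls spread over the proteins, with both tumour 43 calls at neighbouring residues 180 and 181 of Hist1h1d and 39.58%.

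Most base changes were at C:G pairs. Written from the pyrimidine base, 8 of the 13 changes were C>T (61.5%, exact 95% interval 31.6 to 86.1%), 2 were C>G, 2 were T>C and 1 was T>A. No call was C>A or T>G. Among 9607 other private SNVs outside the antibody loci, C>T made up 29.7%, C>A 17.9% and T>G 15.2%. This pool weights tumours by their load: tumour 2 alone gave 1415 of the SNVs. Per tumour, the C>A share had a median of 13.4% and ranged from 5.26% to 39.7%. C:G pairs took 10 of 13 member changes (76.9%, 46.2 to 94.96%), against 53.8% of the other private SNVs. Other histone genes had 22 of 27 private SNVs at C:G pairs (81.5%, 61.9 to 93.7%), which lies above the members' share, and had C>T at 44.4%. The antibody loci, the main targets of AID, lay below the other private SNVs on both counts, with 124 of 283 private SNVs at C:G pairs (43.8%) and 25.4% C>T. Base composition of the genes was not taken into account. The ratio of missense to synonymous changes was 10 to 1 in the members, 2.17 (13 to 6) in the other histone genes and 1.65 (1234 to 748) among the other private SNVs. The members' ratio rests on 1 synonymous call in genes picked on their calls, so it was not tested and no selection can be read from it.

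The written codon changes also fix some of the bases beside a changed base. For instance, an alanine codon changed at its first base must have C next. Of the 11 coding changes 10 were at C:G pairs, and together they fixed 11 flanking bases. All 11 were of the kind that AID prefers, a purine before or a pyrimidine after the changed base, read on the coding strand for C and for G alike. Over all other private coding SNVs outside the antibody loci, Myc and the histone genes, 673 of 1254 fixed flanks (53.7%) were of that kind. Among those that were C>T, the figure was 430 of 770 (55.8%), whereas the 8 member C>T changes had 9 of 9. Private coding changes of Myc, itself a known AID target, had 13 of 17 (76.5%), and those of the other histone genes 11 of 19 (57.9%). These flanks depend on which amino acids change. At the bases changed here, alanine, proline, lysine, threonine and leucine codons leave no other kind of readable flank. The same holds for the base before the change in p.Gly103Asp. Of the 11 fixed flanks, only the base after the change in p.Gly103Asp could have been of the other kind. The match of all 11 was thus nearly set by the residues and carries little information. The comparison sets were not matched for amino acids, so their shares are not a baseline for H1 proteins. Only p.Gly103Asp had both sides read. The 13 calls come from 8 tumours, and the outer bases of the full motif could not be read, so the match describes letters and names no enzyme. The 5' UTR change is at an A preceded by T, as the printed window shows.

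Read shares of the 13 calls ran from 7.41% to 53.33% with a median of 27.3%. Of these, 4 lay under 20%, 8 between 20% and 40%, and 1 above 50%. Without tumours 10 and 43, an alternative chosen after the data were seen, the median was 19.35%. The median over the 9607 other private SNVs outside the antibody loci was 18.37%. In 11 of 13 calls the share was above the median of the same tumour's other private SNVs. The largest differences were those of the tumour 43 pair in Hist1h1d, 19.6 percentage points above its tumour's median of 20%. Next came the tumour 10 change in the 5' UTR, 16.7 points above a median of 16.7%. Its share of 33.33% was still below the upper quartile of that tumour's other private SNVs, 33.86%. The calls below their medians were p.Ala69Thr in tumour 22, with a difference of -5.92 points, and p.Pro182Ser in tumour 36, with -0.56 points. With depth unknown, no interval can be set around a single share. The H1 genes are paralogues with similar coding sequences, and reads shared among them were not tested for.

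Several linker histone calls often met in 1 tumour. Of the 8 carriers, 5 had 1 call, 1 had 2 and 2 had 3, so 8 of the 13 calls came from 3 tumours. In each of these 3 tumours more than 1 member was hit. Tumour 10 had 33.33% and 27.27% for its Hist1h1d calls, 289 bases apart, and 23.53% for its Hist1h1e call. Tumour 43 had 39.58% for both its Hist1h1d missense changes and 36.23% for the Hist1h1c change. Tumour 22 had 19.35% in Hist1h1d and 7.41% in Hist1h1c. Within a tumour the calls thus differed by at most 3.35 percentage points in tumour 43, 9.8 in tumour 10 and 11.9 in tumour 22. Without tumours 10 and 43, an alternative chosen after the data were seen, 7 variants in 6 tumours were left. In those 3 tumours the nearest private variant on chromosome 13 outside the members was at least 304985 bases away. In tumours 36 and 34 it was nearer and inside the histone cluster, at 24513 and 153728 bases. In tumours 2, 18 and 42 it was 546088, 1172254 and 17293452 bases away.

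**Figure D2:**
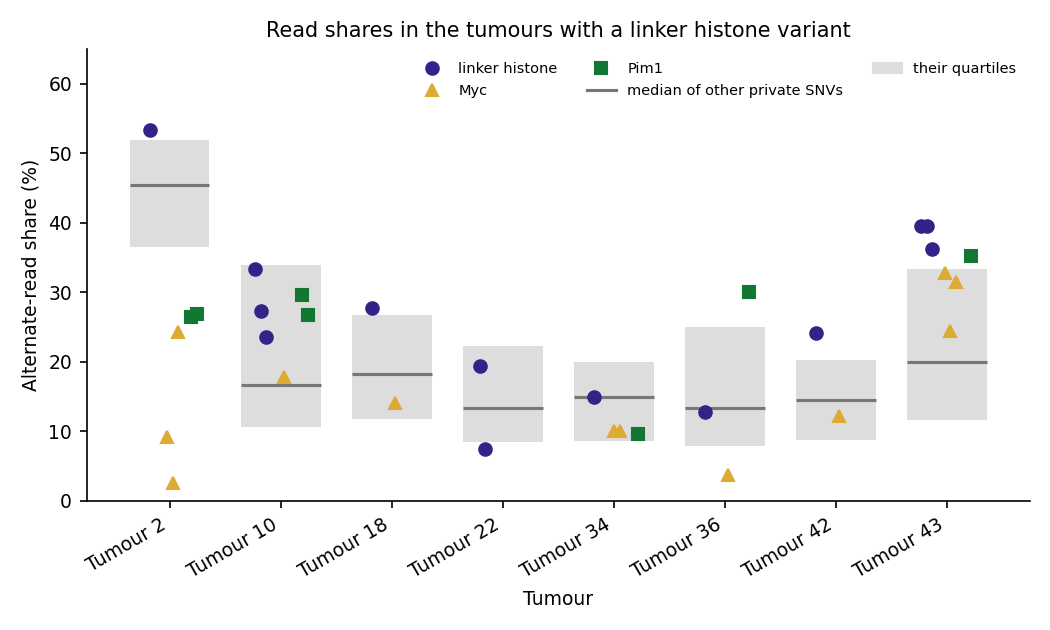
Alternate-read share in percent (y axis) in the 8 tumours with a linker histone variant (x axis): circles are linker histone calls, triangles private Myc calls, squares private Pim1 calls, grey boxes the quartiles and lines the median of the tumour's other private SNVs. Linker histone calls lie above the line in all but 2 cases, 1 each in tumours 22 and 36; the tumour 34 call exceeds its line by 0.03 points.

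The carriers did not share a level of private variants. Counted outside the antibody loci and the members, private variants ranged from 105 to 1688 over the 44 tumours, with a median of 210. Tumour 2 held 1688, the highest of all. The other carriers held 320 (tumour 10), 291 (tumour 18), 235 (tumour 34), 220 (tumour 43), 217 (tumour 42), 182 (tumour 22) and 166 (tumour 36), which placed them between rank 10 and rank 33 of the 44. Protein-altering private variants numbered 160 in tumour 2 and between 21 and 47 in the other 7 carriers, against a median of 24.5 over all tumours.

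Private variants in the antibody loci were listed in 42 of the 44 tumours, all 8 carriers among them. In Igh, Igk and Igl together they numbered 14 in tumours 2 and 18 and 12 in tumours 34 and 36. The numbers were 10 for tumour 22, 8 for tumour 42, 5 for tumour 43 and 4 for tumour 10. Over all 44 tumours the median was 7 and the range 0 to 16. Thus 6 of the 8 lay above the median, while tumours 10 and 43, with 3 linker histone calls each, were both below it. The carriers were defined by a measured call and were therefore not tested against the other tumours.

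**Figure D3:**
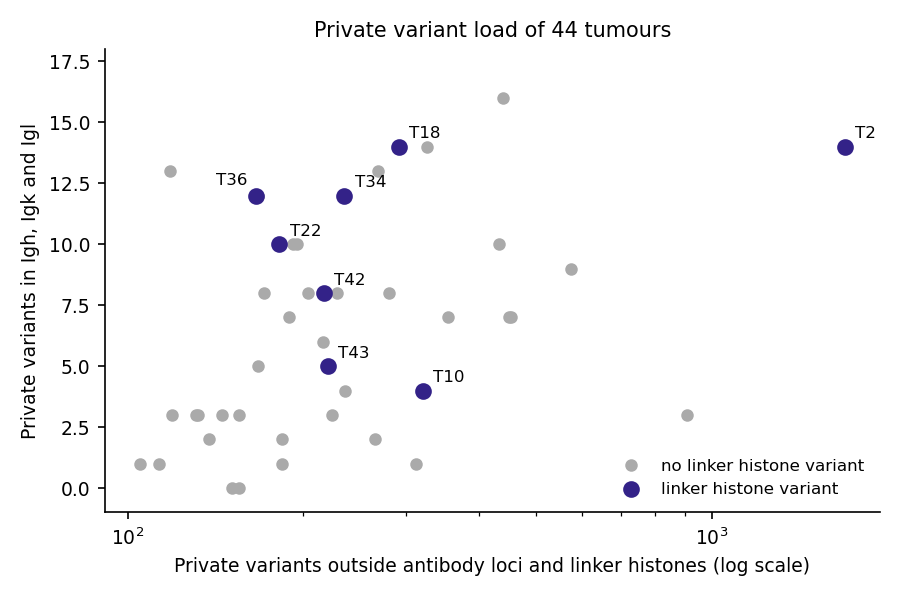
Each point is 1 of the 44 tumours, by private variants outside antibody loci and linker histones (x axis, log scale) and private variants in the antibody loci (y axis); dark points with tumour numbers carry a linker histone variant. Tumour 2 stands at 1688, and the other 7 carriers lie between 166 and 320.

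Substitution patterns of the carriers' other private SNVs varied as well. Transitions made up between 37.2% (tumour 10) and 68.7% (tumour 2), against 54.4% as the median of all tumours. In tumour 10, 34.96% of the other private SNVs were C>A, the fourth highest share of the 44. Its 3 linker histone calls were C>T changes in 2 cases and T>A in 1, too few to set against that share. In the other 7 carriers the C>A share ran from 5.59% to 15.6%.

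Of the 24 genes listed as off-target sites of AID, 12 had a private variant in any tumour (50%), against 24.2% of all protein-coding genes. The list was chosen with earlier results known, and gene length was not matched. Myc, the transcription factor of the transgenic model, had private variants in 28 of 44 tumours and in 7 of the 8 carriers, all but tumour 22. Missense changes of Myc were present in 5 carriers: p.Cys187Trp in tumour 2 at 24.24%, p.Tyr89Cys in tumour 18 at 14%, p.Ser219Arg in tumour 34 at 10%, p.Lys386Met in tumour 36 at 3.66%, and both p.Leu121Ser and p.Ser188Ala in tumour 43, at 24.44% and 31.43%. In each of these 7 tumours every private Myc call had a lower read share than the tumour's lowest linker histone call. Whether reads of a Myc transgene entered these shares is not known, so the order of the calls in time cannot be read from them.

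Pim1, a serine/threonine kinase gene and a textbook AID target, was the gene with the most similar carriers. It had private variants in 7 tumours, 5 of them linker histone carriers (tumours 2, 10, 34, 36 and 43), a Jaccard index of 0.5 over the 44 tumours. In tumour 43 its synonymous call stood at 35.29%, next to 36.23% and 39.58% for the linker histones. In tumour 10 both its synonymous calls, at 29.55% and 26.67%, lay among the linker histone shares. In tumour 2, p.His68Tyr and a synonymous change stood at 26.92% and 26.42%, far below the 53.33% of p.Lys169Glu. In tumour 34, p.Lys24Asn stood at 9.52%, and in tumour 36 a 5' UTR change at 30%. Missense Pim1 calls were thus present in 2 carriers. Elsewhere on the list, tumour 42 carried a variant of Cd83, tumour 22 of Cd74 and tumour 2 of Irf8, each private.

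After Pim1, the closest of 519 ranked genes were the core histone gene Hist1h2ai and the tyrosine kinase gene Src, each private in 3 tumours that were all carriers (Jaccard index 0.375), then Ppp1r12b and Serpinb9e, each with 3 carriers among 4 tumours (0.333). With 8 carriers and so few tumours per gene, these indices rest on 3 shared tumours each.

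On average, the other histone genes held fewer private variants per gene. They had 30 in all, of which 14 altered a protein, in 11 genes and 13 tumours. Counted by position inside gene spans, the 4 linker histone genes held 12 private variants, or 3 per gene, whereas 61 core histone genes of the histone clusters held 21, or 0.344 per gene. Per 1000 bases of span the members had 3.90. The 55 core genes with spans up to 1000 bases, a limit chosen after the data were seen, had 0.550. Among core families the count per gene was 0.500 for H2A, 0.412 for H2B, 0.250 for H3 and 0.143 for H4. Single core genes could reach the members' level: Hist1h2ai had private variants in 3 tumours, against 2 for Hist1h1e. The median read share was 25.7% for the members' 12 calls and 9.09% for the core calls. Capture of each gene is unknown, and the members were picked for having variants, so no test was made.

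**Figure D4:**
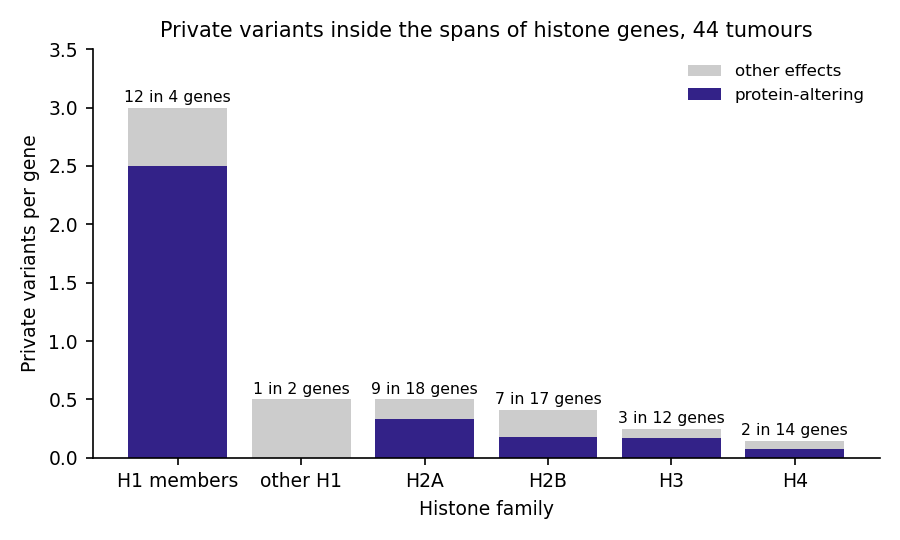
Private variants per gene (y axis, from 0) inside RefSeq spans for each histone family (x axis) over 44 tumours; the dark part is protein-altering, and labels give variants and genes. The 4 linker histone genes described stand at 3 per gene, and no core family exceeds 0.500.

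Related linker histones showed little. Hist1h1a carried a synonymous change of Ala63 in tumour 36 at 5.56%, 24513 bases from that tumour's p.Pro182Ser in Hist1h1c, and the testis gene Hist1h1t an upstream change in tumour 44 at 15.38%. No variant was listed in H1f0, H1fx, H1foo or H1fnt. Core histone missense calls in carriers were Leu97Val of Hist1h2ai in tumour 18 at 27.03%, close to the 27.78% of p.Leu63Phe there, Arg89His of the same gene in tumour 34 at 7.48%, and Ile67Val of Hist2h4 in tumour 36 at 5.08%. In tumours without a linker histone variant, 2 core calls also lay close together with equal read shares: p.His83Leu and the synonymous change of Arg82 in Hist1h2ak, both at 47.58% in tumour 5. The remaining core missense calls were Leu107Val in Hist1h2be (17.65%), Ser87Thr in Hist1h3i (16.77%), Val99Met and His110Tyr in Hist1h2bc (42.11% and 3.77%), Ile88Thr and Ser41Trp in Hist1h2ag (9.09% and 3.33%) and Ala136Ser in Hist1h3g (5.52%). Hist2h2ac had an in-frame deletion at 3.80%, and the histone variant genes H2afx and H2afy carried Leu66Val (8.33%) and Cys276Phe (5.08%).

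Chromatin regulators that act with or against linker histones carried protein-altering variants in 6 tumours, all private. These lay in 4 of 34 listed genes (11.8%), against 5.46% of all protein-coding genes, with gene length not matched. Ezh2, the catalytic subunit of Polycomb repressive complex 2, carried p.Ala455Ser in tumour 33 at 5.19% and the stop p.Lys307Ter in tumour 19 at 8%. Smarca4, a chromatin remodelling ATPase, carried p.Tyr1115Asp in tumour 36 at 7.79% and p.Arg1192His in tumour 1 at 16.22%. The histone methyltransferase gene Kmt2c had a frameshift in tumour 32 at 7.27%, and the nucleolar chaperone gene Npm1 had p.Asp8Tyr in tumour 16 at 11.54%. Tumour 36 was the only one of the 6 with a linker histone variant, and all 6 read shares were below the members' median.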

How the data were processed

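Exome calls of 44 tumours came from 1 annotated variant table. Capture used an Agilent exon kit (50 Mb), per the labels' protocols, and variants were called with GATK on mm10, per the submitters' processing notes. The sources used here name no aligner, GATK version, filter, annotation tool or use of kidneys in calling. Each deposited cell is a percent with its sign, taken, judging by its values, as the share of reads with the alternate allele, or a dot. A deposited count gives the tumours called per row. Depth is unknown, so no interval was set around a read share, and a dot can mean too few reads.

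The 199 rows with several alleles were left out of 25823. Antibody loci and gene spans came from RefSeq (GRCm38.p6), and all 4 members matched it. Domains were assigned by residue number. Codon flanks were inferred from written changes and tested on simulated data. Shares carry exact Clopper-Pearson 95% intervals. Python 3.11.15, pandas 2.3.3 and scipy 1.17.1 were used. Named are every member variant, other histone and listed chromatin genes with protein-altering variants, listed AID targets in carriers, and the 5 genes most alike by Jaccard index (private in at least 3 tumours). Members and lists were chosen with earlier results of these data known.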

Additional observations from a re-analysis of the deposited data

How the results depend on the processing

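Private variants only, SNVs only, genes with a written change and rows with several alleles select the same member rows, so these 28 of 64 recomputed values could not move. Of the other 36, 27 stayed within 1.5 times the main count or within the interval or spread of the main value. A minimum read share of 20% left 5 tumours with any linker histone variant and 5 with a protein-altering one, in place of 8, and 9 of 13 variants. Tumours titled 1601 and above (22 of 44) held 6 variants in 4 tumours, 4 of them with a protein-altering change; those titled below 1601 (22) held 7 variants in 4 tumours, 4 protein-altering. These are fewer by construction. Without tumours 10 and 43, 7 variants remained and the median read share was 19.35%, in place of 27.3%. The share of globular missense changes was 20% in titles of 1601 and above and 80% in those below, both within the wide interval around 50%. Wider domain ends, run for the globular share alone, left it at 50%. No paired analysis was possible because kidneys have no values here and tumours carry no shared replicate numbers. Unknown depth limits all read shares, those under 10% most.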
